A study of Mus musculus with 48 samples.

Results

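Transcripts of 9 complement genes were followed in the thoracic aorta of 48 mice, out of 18782 genes in the count table. They were the 3 chains of C1q (C1qa, C1qb and C1qc), the central and amplifying components C3, C4b and Cfb, the terminal component C7, and the receptors of the anaphylatoxins C3a and C5a (C3ar1 and C5ar1). The members are named by gene, with no threshold on their values, and all 9 passed the filter on low counts. All mice were C57BL/6J wild type and entered the study at 3 weeks of age. Control males (MaCon, n = 10) and females (FeCon, n = 10) drank normal water. The others received 0.4% β-aminopropionitrile (BAPN), which blocks the lysyl oxidases that cross-link collagen and elastin, in drinking water for 28 days. They were divided at dissection into males and females without a detectable lesion (MaNonAD, n = 4, and FeNonAD, n = 8) and those with aortic dissection or aneurysm (MaAAD, n = 7, and FeAAD, n = 9). Mice that died of rupture were not sequenced, so the AAD groups hold survivors, and each library is the bulk RNA of 1 mouse.

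Complement is a cascade of plasma and tissue proteins. The classical pathway starts when C1q binds antibody, dying cells or altered matrix and its proteases cleave C4 and C2, the alternative pathway is amplified by factor B, and both converge on C3. Cleavage of C3 and C5 releases the anaphylatoxins, which act on receptors of myeloid cells, and the later components assemble with C7 into a membrane attack complex. The liver makes most circulating complement. In tissues C1q is made chiefly by macrophages, while fibroblasts and other stromal cells transcribe C3, C4 and C7.

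Library totals lay between 13548003 and 17281262 counts, and the lowest count of a member in any library was 23. Levels are given as CPM (counts scaled to a common library size) corrected by the trimmed mean of M-values. A gene was called a DEG in edgeR's quasi-likelihood test at a Benjamini-Hochberg adjusted p under 0.05 over all 14431 tested genes and a log2 fold change of at least 1 in either direction, and SE is the approximate standard error of the log2 fold change. Defining markers of smooth muscle summed to between 11147 and 57518 CPM in every library and those of hepatocytes to at most 2.16 CPM. Several libraries stood apart: FeAAD5 and MaAAD7 had the highest sums of macrophage and of neutrophil markers in their groups, FeAAD9 the lowest C3, Cfb and C7, and FeNonAD8 the highest macrophage markers of its group. The counts of called members in the 7 pairwise comparisons that involve these groups were therefore also made without these 4 libraries, a choice made after the data had been seen.

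In aortas with a lesion, most complement transcripts were higher than in water controls, C3 differed by less than 2-fold, and C7 was lower. In FeAAD vs. FeCon, 7 of 9 members were DEGs, 6 of them higher (C1qa, C1qb, C1qc, C4b, C3ar1 and C5ar1) and 1 lower (C7), where 12.7% of all tested genes were DEGs, 9.94% higher and 2.78% lower. In MaAAD vs. MaCon, 8 members were DEGs, the same 7 and Cfb, which was higher, where the share over all genes was 11.4%, 9.18% higher and 2.18% lower. The median log2 fold change of the 9 members was 1.34 in females and 1.55 in males, beside 0.001 and -0.03 over all tested genes. Lesion and control libraries did not overlap for 1 member in females (C7), a separation found in 4.89% of all genes, and for 6 in males (C1qb, C1qc, C4b, C3ar1 and C5ar1 above, C7 below), found in 8.91%. Without the trimmed-mean correction C7 overlapped in males, and C1qa and Cfb did not. Without the 4 libraries named above, 7 members were DEGs in females and 6 in males, where C7 and Cfb then missed the fold threshold.

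**Figure D1:**
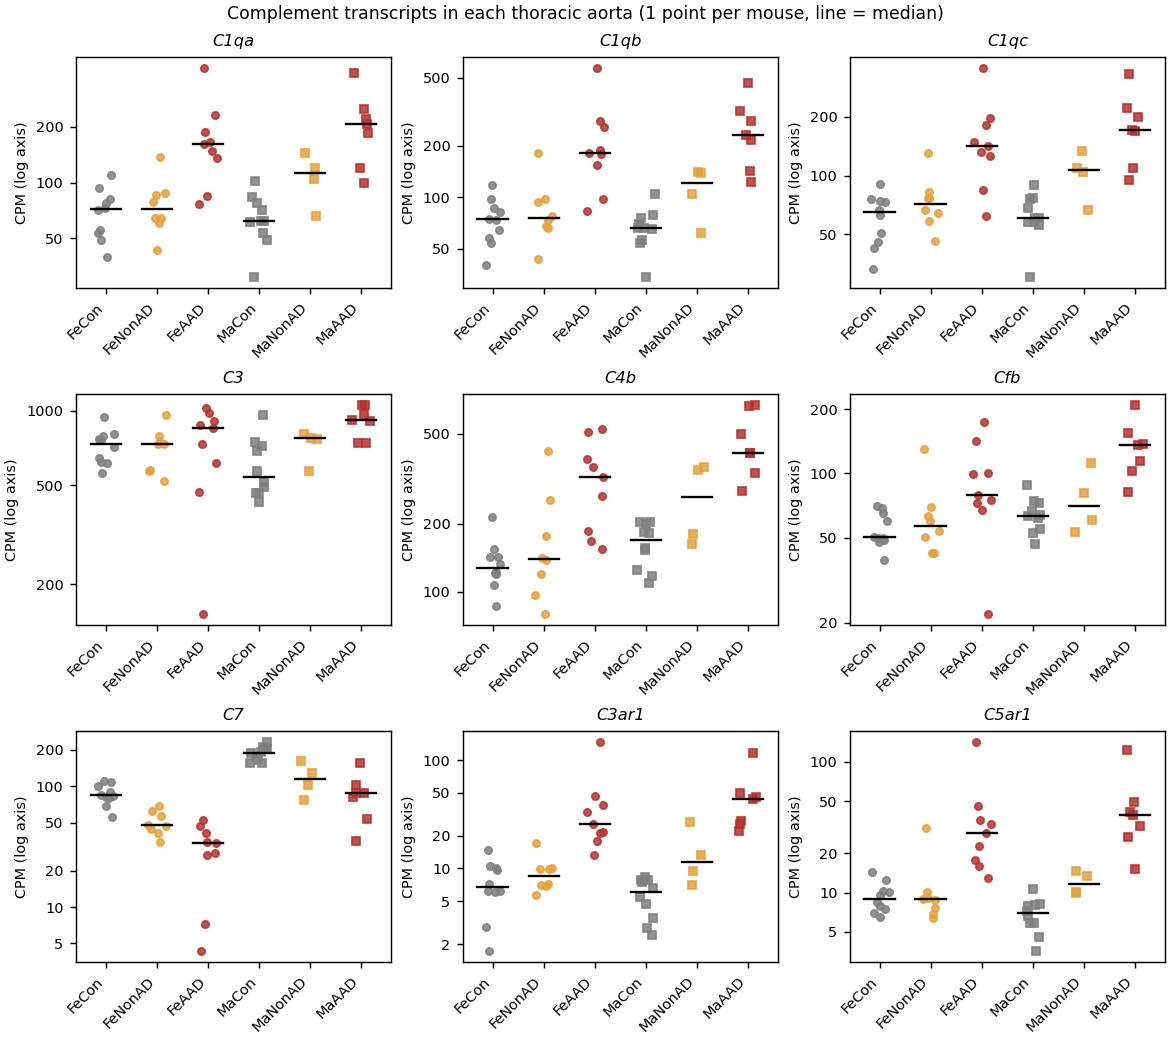
Levels of the 9 complement transcripts in CPM, on a log axis, in each of the 48 aortas by group, with 1 point per mouse, circles for females, squares for males and a line at the group median. C1q, C4b, C3ar1 and C5ar1 were highest in the AAD groups, while C7 fell from Con to AAD in both sexes and was higher in males.

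C1qa, C1qb and C1qc encode the 3 polypeptide chains of C1q, and their transcripts rose together in lesions of both sexes. C1qb was at 40.1 to 119 CPM in FeCon, with a median of 74.3, at 43.7 to 182 CPM (median 76.1) in FeNonAD, and at 83.7 to 574 CPM (median 182.5) in FeAAD. In males it was at 34.1 to 105 CPM (median 65.8) in MaCon, at 61.5, 105, 139 and 140.0 CPM in the 4 MaNonAD aortas, and at 122.5 to 465 CPM (median 232) in MaAAD. Every MaAAD library was above every MaCon library, whereas FeAAD3 and FeAAD9 lay within the FeCon range. C1qb was 2.96-fold higher in FeAAD than in FeCon (log2 1.56, SE 0.27, adjusted p = 7.14e-06) and 3.79-fold higher in MaAAD than in MaCon (log2 1.92, SE 0.284, adjusted p = 7.26e-07). For C1qa the log2 fold changes were 1.34 (SE 0.249, adjusted p = 2.33e-05) and 1.68 (SE 0.263, adjusted p = 1.91e-06). For C1qc they were 1.37 (SE 0.235, adjusted p = 6.24e-06) and 1.55 (SE 0.247, adjusted p = 2.55e-06). The medians of C1qa rose from 71.9 to 161 CPM in females and from 62.1 to 207 CPM in males, and those of C1qc from 64.8 to 141 CPM and from 60.7 to 170.4 CPM.

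The 3 chains kept nearly equal shares of their summed CPM. Over the 48 libraries C1qa made up 29.6% to 36.8%, C1qb 31.7% to 42.6% and C1qc 26.5% to 35.3% of the sum. The share of C1qb was 37.8% to 40.5% in MaAAD and 32.6% to 36.0% in MaCon, ranges that did not overlap, and that of C1qc was 27.8% to 30.0% and 30.2% to 35.3%. In females these ranges overlapped, with C1qb at 36.3% to 42.6% in FeAAD and 34.8% to 38.2% in FeCon. These shares are given as a description and were not tested.

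C1q is a macrophage product in most tissues, and macrophage markers moved with it. Of 10 macrophage markers, 7 were called higher in each lesion comparison. Mertk, a receptor for dying cells, was at a log2 fold change of -0.60 in FeAAD vs. FeCon (adjusted p = 0.000437) and of -0.72 in MaAAD vs. MaCon (adjusted p = 0.000161), past the adjusted p and not the fold threshold, and Cd163 (0.10 and 0.51) and Lyve1 (-0.49 and 0.29) did not pass it. The summed level of the 10 markers was 458 to 751 CPM in FeCon, 681 to 5011 CPM in FeAAD, 395 to 643 CPM in MaCon and 835 to 3216 CPM in MaAAD. Per 100 CPM of these markers, C1q summed to a median of 34.0 CPM in FeCon, 35.1 in FeNonAD and 45.5 in FeAAD, and of 33.9 in MaCon, 53.9 in MaNonAD and 39.5 in MaAAD. The ranges of this ratio overlapped between all groups, from 23.0 to 78.7 over the 48 libraries. In bulk tissue, more cells of a type and more RNA per cell cannot be told apart.

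**Figure D2:**
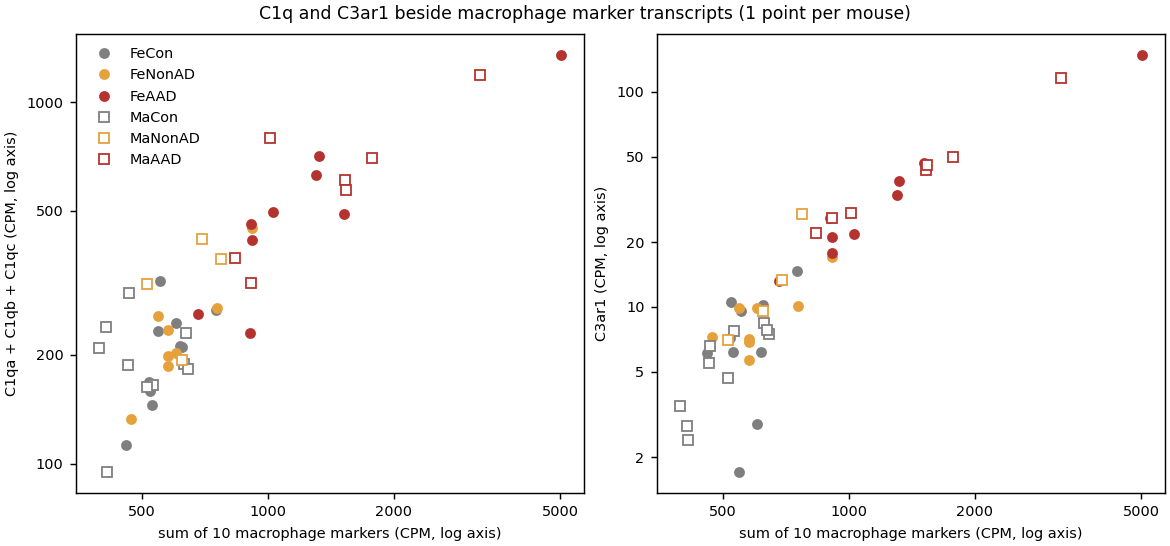
Summed C1q chains (left) and C3ar1 (right) against the summed level of 10 macrophage markers, all in CPM on log axes, with 1 point per mouse, filled circles for females and open squares for males. FeAAD5, at 5011 CPM of macrophage markers, and MaAAD7, at 3216 CPM, lie at the upper right of both panels.

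The 2 C1q genes with a promoter in the RefSeq table used here lie close together on chromosome 4, and their 250 bases upstream of the start are shown because their transcripts rose together. Both are on the minus strand of GRCm38.p6, which is not the build of the counts (GRCm39), C1qb at chr4:136886201-136886450 and C1qc at chr4:136892915-136893164, printed 5′ to 3′ in the sense direction. Both promoters hold the letters GAGGAA, the core of sites for the myeloid factor PU.1, on 1 strand each, shown in capitals.
C1qb: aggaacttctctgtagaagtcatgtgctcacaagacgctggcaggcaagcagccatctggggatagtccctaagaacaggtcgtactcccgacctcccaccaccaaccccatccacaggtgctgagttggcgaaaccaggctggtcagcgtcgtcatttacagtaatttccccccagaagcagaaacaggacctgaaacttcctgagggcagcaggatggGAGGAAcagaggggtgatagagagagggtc
C1qc: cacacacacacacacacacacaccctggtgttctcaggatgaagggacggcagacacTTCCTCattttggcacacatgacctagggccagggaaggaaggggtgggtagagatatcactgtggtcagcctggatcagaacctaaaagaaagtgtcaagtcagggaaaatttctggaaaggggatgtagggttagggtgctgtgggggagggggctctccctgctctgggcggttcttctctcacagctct
In C1qb the letters lie 30 to 25 bases before the start, and in C1qc they read TTCCTC, on the opposite strand, 193 to 188 bases before it. Of 32851 promoters of this length, 23.3% held GAGGAA on either strand, so the match is a description and not a site. The other letters searched on both strands were TTGCNNAA (C/EBP, in 9.56% of promoters), TGANTCA (AP-1, 6.75%), GGGANTTCC (NF-κB, 1.43%), TTCNNNGAA (GAS, 7.02%) and GAAANNGAA (ISRE, 7.13%), where N is any base. No match overlapped another in the 6 member promoters, which were those of C1qb, C1qc, C3, C7, C3ar1 and C5ar1.

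C3, on which all pathways converge, had the highest level per kb of transcript of the 9 members in FeCon, at 140.6 ± 22.4 CPM per kb (SD, n = 10), and in MaCon, at 117.9 ± 33.1 (SD, n = 10). It was also the member with the smallest fold change of lesions against controls in each sex. C3 was at 560.5 to 944 CPM (median 737) in FeCon, 523 to 958 CPM (median 735) in FeNonAD, and 151 to 1020.0 CPM (median 849) in FeAAD. In males it was at 427 to 963 CPM (median 542) in MaCon, at 572, 768, 779 and 804 CPM in MaNonAD, and at 739 to 1057 CPM (median 921) in MaAAD. The lesion and control ranges overlapped in both sexes. The log2 fold change was 0.02 in FeAAD vs. FeCon (SE 0.185, adjusted p = 0.931, 95% interval -0.34 to 0.39) and 0.59 in MaAAD vs. MaCon (SE 0.197, adjusted p = 0.0161), under the fold threshold. The female value rested in part on FeAAD9, at 151 CPM, and FeAAD5, at 472 CPM, and without the 4 libraries named above it was 0.25. Letters of a C/EBP site, TTGCGAAA, lie 45 to 38 bases before the start of C3.

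C4b encodes component C4, cleaved by the C1 complex, and it rose in lesions of both sexes. It was at 86.7 to 215 CPM (median 127.5) in FeCon, 79.3 to 418 CPM (median 139) in FeNonAD and 153.5 to 525 CPM (median 321) in FeAAD. In MaCon it was at 109 to 204 CPM (median 169), in the MaNonAD aortas at 162, 180, 345.5 and 356 CPM, and in MaAAD at 278 to 671 CPM (median 412). MaAAD and MaCon did not overlap, whereas FeAAD3, FeAAD5 and FeAAD9 lay below the highest FeCon library, FeCon10. C4b was 2.37-fold higher in FeAAD vs. FeCon (log2 1.25, SE 0.244, adjusted p = 5.03e-05) and 2.86-fold higher in MaAAD vs. MaCon (log2 1.52, SE 0.258, adjusted p = 7.63e-06). In FeAAD5, which had the highest C1q, C4b was only 186 CPM. Mice carry a near copy of this gene, C4a, which was not analysed here, so how reads were divided between the copies is uncertain.

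Cfb encodes factor B, the protease of the alternative pathway. In females it was at 39.2 to 70.1 CPM (median 50.2) in FeCon, 42.4 to 130 CPM (median 56.9) in FeNonAD and 21.9 to 174 CPM (median 79.0) in FeAAD. In males it was at 46.8 to 87.9 CPM (median 63.5) in MaCon, at 53.2, 60.5, 80.7 and 112 CPM in MaNonAD, and at 82.4 to 210 CPM (median 136.5) in MaAAD. FeAAD9 was the lowest of all 48 libraries, and only MaAAD4 lay within the range of MaCon. The log2 fold change was 1.05 in MaAAD vs. MaCon (SE 0.229, adjusted p = 0.000272) and 0.75 in FeAAD vs. FeCon (SE 0.216, adjusted p = 0.00443), which passed the adjusted p and not the fold threshold. Without MaAAD7 the male value was 0.91, also under the threshold.

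Fibroblasts are a usual tissue source of C3, C4 and factor B, and the fibroblast markers did not move in 1 direction with the lesion. Of 7 markers, the matrix genes Lum, Col1a1 and Col3a1 were called higher in each lesion comparison and none was called lower. In FeAAD vs. FeCon the median log2 fold change of the list was -0.008, with Pi16 at -0.78 (adjusted p = 0.00213), Dcn at -0.33 and Dpt at -0.30, and in MaAAD vs. MaCon it was 0.38, with Pi16 at -0.47. The summed level, to which Col1a1 and Col3a1 add up to 10563 and 13545 CPM, was 8755 to 13057 CPM in FeCon, 13878 to 27746 in FeAAD, 9503 to 12616 in MaCon and 14051 to 26593 in MaAAD. Per 100 CPM of these markers, C3 had a median of 6.75 CPM in FeCon and 3.81 in FeAAD, and of 4.78 in MaCon and 4.68 in MaAAD. On the same ratio C4b had medians of 1.27 and 1.89 in females and of 1.48 and 2.10 in males, all with overlapping ranges. The part of these markers in the levels of C3, C4b and Cfb was not tested.

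C7 binds the C5b-6 complex and carries it into the membrane, and it behaved unlike the other members, being lower in lesions and higher in males. In females C7 was at 55.1 to 109 CPM (median 84.3) in FeCon, 34.5 to 68.2 CPM (median 47.5) in FeNonAD and 4.29 to 52.0 CPM (median 33.6) in FeAAD. In males it was at 156.5 to 233 CPM (median 189.5) in MaCon, at 76.5, 102.5, 128 and 162 CPM in MaNonAD, and at 35.3 to 156 CPM (median 87.8) in MaAAD. No AAD library of either sex reached the lowest control of its sex, although MaAAD2, at 156.4 CPM, came within 1 CPM of MaCon8. Without the trimmed-mean correction the male ranges overlapped, with MaAAD2 at 160.8 CPM and MaCon6 at 152.7 CPM. FeAAD9 at 4.29 CPM and FeAAD5 at 7.22 CPM were far below the other FeAAD aortas, which started at 27.0 CPM. C7 was 2.82-fold lower in FeAAD than in FeCon (log2 -1.49, SE 0.259, adjusted p = 7.81e-06) and 2.19-fold lower in MaAAD than in MaCon (log2 -1.13, SE 0.277, adjusted p = 0.00114). Without FeAAD9 the female value was -1.35, and without MaAAD7 the male value was -0.99, just under the fold threshold.

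C7 was the only member to pass the adjusted p in aortas without a lesion, in females. In FeNonAD vs. FeCon it was 1.71-fold lower (log2 -0.77, SE 0.263, adjusted p = 0.0394), which passed the adjusted p, as did 14.5% of all genes, and not the fold threshold. Leaving out 1 library at a time gave adjusted p from 0.0283 to 0.0802, the highest without FeNonAD8. It was 0.0502 with no filter on low counts, 0.00113 when only these groups were fitted and 0.00219 without the 4 libraries named above. In MaNonAD vs. MaCon the log2 difference was -0.69 (SE 0.333, adjusted p = 0.397, and 0.046 when only these groups were fitted), with 3 of 4 MaNonAD aortas under the lowest MaCon. From NonAD to AAD the log2 difference was -0.72 in females (SE 0.267, adjusted p = 0.0526) and -0.44 in males (SE 0.337, adjusted p = 0.509), and neither was called.

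The promoter of C7 is shown because this gene moved against the others. It lies on the minus strand of GRCm38.p6 at chr15:5063774-5064023, with the only match, to the GAS letters bound by STAT factors, in capitals.
C7: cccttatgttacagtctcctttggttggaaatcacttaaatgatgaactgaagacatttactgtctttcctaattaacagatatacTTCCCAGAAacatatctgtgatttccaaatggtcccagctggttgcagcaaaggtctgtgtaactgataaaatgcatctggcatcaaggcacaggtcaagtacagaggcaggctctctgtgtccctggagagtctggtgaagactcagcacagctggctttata
The match lies 164 to 156 bases before the start, and 43.2% of these 250 bases were G or C.

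Between the sexes, C7 was the only member called. In controls it was 2.20-fold higher in MaCon than in FeCon (log2 1.14, SE 0.246, adjusted p = 0.00154), where 1.51% of all genes were DEGs, and the 10 males all lay above the 10 females, a separation found in 0.152% of genes. Under BAPN without a lesion C7 was 2.33-fold higher in MaNonAD than in FeNonAD (log2 1.22, SE 0.323), again with every male above every female, found in 0.762% of genes. Its adjusted p was 0.40 when all 48 libraries were fitted and 0.0319 when only these groups were, it ran from 0.262 to 0.992 when 1 library was left out, and 0.0485% of all genes were DEGs. With a lesion it was 2.83-fold higher in MaAAD than in FeAAD (log2 1.5, SE 0.276, adjusted p = 0.0036), where 0.0693% of genes were DEGs. That call was lost when only these groups were fitted, with a log2 difference of 1.51 (p = 0.0021, adjusted p = 1.0), whereas it was kept when any 1 library was left out (adjusted p from 0.000647 to 0.034). Only MaAAD7, at 35.3 CPM, lay under the highest FeAAD library, FeAAD2 at 52.0 CPM.

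**Figure D3:**
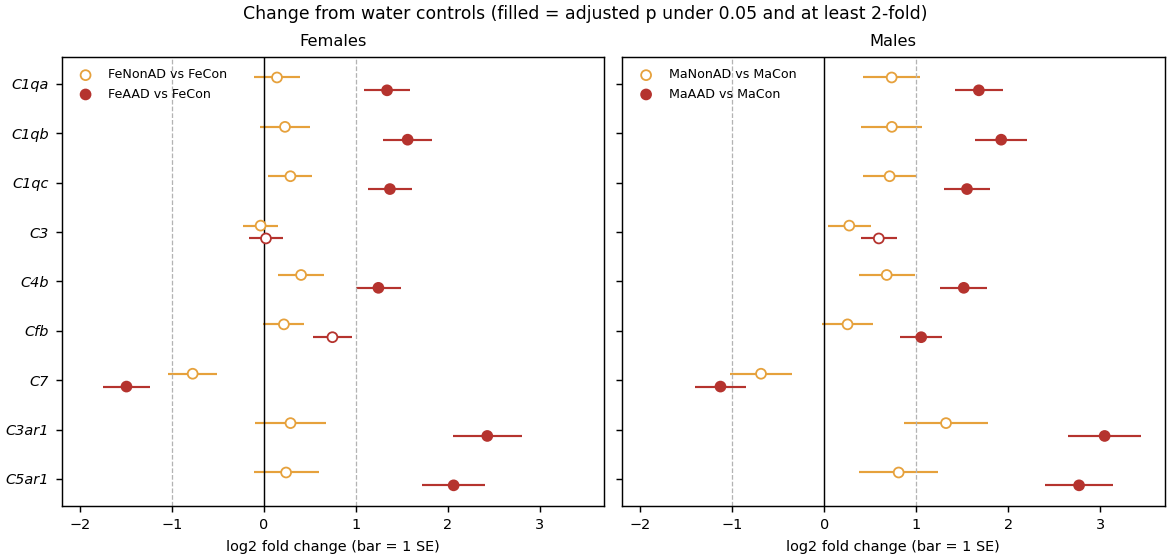
Log2 fold change of each member against water controls in females (left) and males (right), for aortas without a lesion (orange) and with one (red), with bars of 1 SE and filled points where a gene was called. C7 lies left of 0 in all 4 comparisons, and the values without a lesion are nearer 0 than those with one for each member except C3 in females.

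Smooth muscle markers were lower and some fibroblast markers higher in the lesions in which C7 was lower. Of 6 smooth muscle markers 4 were called lower in each lesion comparison, and their sum had medians of 41220 CPM in FeCon and 20345 in FeAAD, and of 39255 in MaCon and 19306 in MaAAD. Per 100 CPM of fibroblast markers, a sum that rose with its collagen genes, C7 had a median of 0.838 CPM in FeCon, 0.379 in FeNonAD and 0.145 in FeAAD, and of 1.64 in MaCon, 0.926 in MaNonAD and 0.347 in MaAAD. On this ratio FeAAD, at 0.029 to 0.324, stayed below FeCon, at 0.537 to 1.14, and MaAAD, at 0.198 to 1.11, below MaCon, at 1.39 to 2.15. In FeNonAD vs. FeCon Des (log2 -0.82), Lmod1 (-0.69), Col1a1 (0.64) and Col3a1 (0.61) passed the adjusted p and not the fold threshold. None of the smooth muscle and fibroblast markers was called between the sexes in any of the 3 states. The part of these cells in the level of C7 was not tested.

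C3ar1 and C5ar1, the receptors of C3a and C5a, had the lowest levels per kb in controls, at 1.75 ± 0.897 and 3.71 ± 0.989 CPM per kb in FeCon and 1.32 ± 0.521 and 2.69 ± 0.798 in MaCon (SD, n = 10 each), and they rose most. C3ar1 was at 1.71 to 14.8 CPM (median 6.68) in FeCon, 5.70 to 17.1 CPM (median 8.55) in FeNonAD and 13.2 to 148 CPM (median 25.8) in FeAAD. In males it was at 2.41 to 8.39 CPM (median 6.03) in MaCon, at 7.00, 9.55, 13.4 and 26.9 CPM in MaNonAD, and at 22.2 to 116 CPM (median 43.4) in MaAAD. All MaAAD aortas were above all MaCon aortas, and in females only FeAAD3 was under the highest FeCon, which was FeCon10. C3ar1 was 5.39-fold higher in FeAAD vs. FeCon (log2 2.43, SE 0.375, adjusted p = 1.01e-06) and 8.27-fold higher in MaAAD vs. MaCon (log2 3.05, SE 0.397, adjusted p = 8.29e-08).

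C5ar1 was at 6.55 to 14.4 CPM (median 8.95) in FeCon, 6.44 to 31.3 CPM (median 8.89) in FeNonAD and 12.8 to 143 CPM (median 28.7) in FeAAD. In males it was at 3.54 to 10.6 CPM (median 6.94) in MaCon, at 9.95, 10.1, 13.3 and 14.7 CPM in MaNonAD, and at 15.1 to 123 CPM (median 39.4) in MaAAD. The MaAAD range lay above those of MaCon and MaNonAD, and FeAAD3 alone was within FeCon. C5ar1 was 4.18-fold higher in FeAAD vs. FeCon (log2 2.06, SE 0.345, adjusted p = 4.26e-06) and 6.82-fold higher in MaAAD vs. MaCon (log2 2.77, SE 0.367, adjusted p = 1.14e-07). C3ar1 and C5ar1 were at 148 and 143 CPM in FeAAD5 and at 116 and 123 CPM in MaAAD7, the highest of the 48 aortas. Without FeAAD5 the female log2 fold changes were 1.85 for C3ar1 and 1.49 for C5ar1, and without MaAAD7 the male ones were 2.65 and 2.31, all still called.

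Set against the sum of macrophage markers, the receptors were also at higher values in lesions, which is given as a description and was not tested. Per 100 CPM of the 10 markers, C3ar1 was at 0.583 to 1.46 CPM in MaCon and 2.66 to 3.60 in MaAAD, and at 0.313 to 2.02 in FeCon and 1.94 to 3.06 in FeAAD. C5ar1 was at 0.858 to 1.67 CPM in MaCon and 1.81 to 3.84 in MaAAD, and at 1.2 to 2.26 in FeCon and 1.74 to 3.67 in FeAAD. The male ranges did not overlap and the female ranges did. The sum leans on Lyz2, at up to 3751 CPM, and includes Mertk, which was lower in lesions. Beside single markers the order varied. In FeAAD vs. FeCon C5ar1 (log2 2.06) rose less than Fcgr1 (3.43), Lyz2 (2.29), Cd68 (2.17) and Adgre1 (2.17), and more than the other markers of the list. For C3ar1 in females, and for both receptors in males, only Fcgr1 rose more. Neutrophils also carry these receptors, and their 7 markers summed to 7.95 to 19.6 CPM in FeCon, 11.4 to 1150.0 CPM in FeAAD, 9.68 to 20.1 CPM in MaCon and 12.8 to 401 CPM in MaAAD, with the top values in FeAAD5 and MaAAD7. Of 7 neutrophil markers, 6 were called higher in FeAAD vs. FeCon and 4 in MaAAD vs. MaCon, and their part in the rise of the receptors was not tested. Of 6 blood cell markers, 6 were called higher in FeAAD vs. FeCon and 2 in MaAAD vs. MaCon, with the highest sum in FeAAD2 (25058 CPM), and 4 of 5 cardiomyocyte markers were called lower in FeAAD vs. FeCon. Of 6 T and B cell markers, 3 were called higher in FeAAD vs. FeCon, Cd79a and Ms4a1 among them, and 1 in MaAAD vs. MaCon (Cd79a).

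Promoters of both receptors are shown because their transcripts rose furthest. C3ar1 lies on the minus strand of GRCm38.p6 at chr6:122856158-122856407 and C5ar1 on the minus strand at chr7:16259339-16259588, with matches in capitals.
C3ar1: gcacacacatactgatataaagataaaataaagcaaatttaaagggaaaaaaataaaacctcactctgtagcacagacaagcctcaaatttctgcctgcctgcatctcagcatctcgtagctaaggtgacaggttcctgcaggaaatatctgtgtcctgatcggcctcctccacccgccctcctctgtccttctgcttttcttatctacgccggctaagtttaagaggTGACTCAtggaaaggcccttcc
C5ar1: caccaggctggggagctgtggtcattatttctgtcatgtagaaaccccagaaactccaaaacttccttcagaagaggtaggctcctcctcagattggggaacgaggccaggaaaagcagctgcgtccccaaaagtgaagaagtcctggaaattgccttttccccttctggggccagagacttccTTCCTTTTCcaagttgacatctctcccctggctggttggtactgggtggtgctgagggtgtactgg
C3ar1 held the AP-1 letters 22 to 16 bases before the start, and C5ar1 the ISRE letters on the opposite strand, 66 to 58 bases before it. The pair shared none of the 6 searched motifs.

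In BAPN aortas without a detectable lesion, none of the 9 members was called against water controls. In FeNonAD vs. FeCon, 2.75% of all genes were DEGs, and the log2 differences of the 8 members other than C7 lay between -0.04 for C3 and 0.41 for C4b. The value of C4b was 0.1 without the 4 libraries named above, among them FeNonAD8, which was at 418 CPM beside a group median of 139 CPM. At an unadjusted p under 0.05 only C7 passed, beside 28.9% of all genes. In MaNonAD vs. MaCon, 0.478% of genes were DEGs, and 6 members had an unadjusted p under 0.05, which were the C1q chains, C4b, C7 and C3ar1, beside 12.0% of all genes. The B cell markers Ms4a1 (log2 2.75) and Cd79a (log2 2.34) were called higher in the same comparison, 2 of 6 T and B cell markers. Both were low, at median counts of 5 and 11 over the 48 libraries. None of 10 macrophage or 6 blood cell markers was called, at median log2 differences of 0.66 and 2.04. Macrophage markers with an unadjusted p under 0.05 were Cd68 at 1.04 (unadjusted p = 0.00944), Adgre1 at 0.88 (unadjusted p = 0.0119) and Csf1r at 0.61 (unadjusted p = 0.0206). Mertk also passed that level but was lower, at -0.58 (unadjusted p = 0.00266). The hemoglobin gene Hbb-bs was at 2.02 (unadjusted p = 0.00655). The part of these markers in the members' values was not tested. DESeq2 also called 0 members in both comparisons. The largest male difference was that of C3ar1, 2.5-fold higher (log2 1.32, SE 0.454, adjusted p = 0.186, 95% interval 0.43 to 2.21), and it was 0.81 without MaNonAD1. For C1qa, C1qb and C1qc the log2 differences were 0.73, 0.73 and 0.71 (adjusted p = 0.30, 0.345 and 0.283). With 4 aortas in MaNonAD these intervals are wide, so that differences of 2-fold in these genes were within them.

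From BAPN without a lesion to BAPN with one, 5 members were called higher in females (C1qa, C1qb, C1qc, C3ar1 and C5ar1), where 7.04% of all genes were DEGs and 6.79% were higher. In FeAAD vs. FeNonAD C3ar1 was 4.41-fold higher (log2 2.14, SE 0.40, adjusted p = 0.00017) and C5ar1 3.53-fold higher (log2 1.82, SE 0.369, adjusted p = 0.000388). For C1qb the log2 difference was 1.33 (SE 0.288, adjusted p = 0.000817), for C1qa 1.2 and for C1qc 1.08. In the same comparison 6 of 10 macrophage, 6 of 6 tested neutrophil, 6 of 6 blood cell and 2 of 6 T and B cell markers were called higher, with median log2 differences of 1.27, 4.23, 3.06 and 0.97, and their part in the members' rise was not tested. Single libraries moved the count of members. Without FeAAD5, C1qa (0.93) and C1qc (0.84) missed the fold threshold and 3 members were called, and without FeNonAD8, C4b joined them, at 1.15 beside 0.84 with all libraries (adjusted p = 0.019). Without the 4 libraries named above, 6 were called.

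In MaAAD vs. MaNonAD no member was called, where 0.353% of all genes were DEGs. Unadjusted p was under 0.05 for 7 members, beside 18.7% of all genes. DESeq2 called 3, which were C1qb, C3ar1 and C5ar1, beside 3.54% of the genes it tested. C5ar1 had a log2 difference of 1.96 (SE 0.496, adjusted p = 0.0502) and was above every MaNonAD aorta in all 7 MaAAD aortas, a separation found in 4.04% of genes. For C3ar1 it was 1.73 (SE 0.523, adjusted p = 0.0654) and for C1qb 1.19 (SE 0.38, adjusted p = 0.0744). Of the macrophage, neutrophil, blood cell and T and B cell markers, only the macrophage marker Mrc1 was called here. Median log2 differences of these lists were 1.39, 3.34, -1.09 and -0.87, and their part in the members' values was not tested. Leaving out 1 library at a time gave 0 to 3 called members, the 3 without MaAAD2.

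No member was called for a difference between the sexes in its response. For the AAD response, in which MaAAD vs. MaCon was compared with FeAAD vs. FeCon, 0 of 9 members were called beside 0.52% of all genes, and the lowest adjusted p was 0.299, for C3 (log2 0.57 higher in males, SE 0.271, unadjusted p = 0.0417, a level under 0.05 that 15.4% of genes reached). For the NonAD response 0 members were called beside 0.298% of genes, with no unadjusted p under 0.05, beside 12.1% of genes, and a lowest adjusted p of 0.526. For the step from NonAD to AAD, 0.0% of genes were called, and no member had an unadjusted p under 0.05, beside 1.04% of genes. DESeq2 called 0 members in each of these tests. These tests do not show equal responses: for C7 the difference in the AAD response was 0.36, with a 95% interval from -0.36 to 1.08.

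Within groups, members covaried to different degrees. Over the deviations of log2(CPM + 1) from group means in the 48 libraries, Pearson's r was at least 0.98 between the 3 C1q chains, and 0.84 between C3ar1 and C5ar1. The C1q chains had r = 0.68 to 0.70 with C5ar1, and 0.54 to 0.60 with C3ar1. C4b and Cfb had r = 0.67, and C1qb had r = 0.69 with Cfb and 0.58 with C4b. C7 was negatively related to C1qa (r = -0.32) and C5ar1 (r = -0.48), and positively to C3 (r = 0.57) and Cfb (r = 0.22). Without FeAAD5 and FeAAD9 the r of C7 was -0.53 with C1qa, -0.34 with C5ar1, -0.05 with C3 and -0.40 with Cfb, so that its relation to C3 and to Cfb rested on these libraries. These libraries share composition and depth, so the correlations are descriptions.

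**Figure D4:**
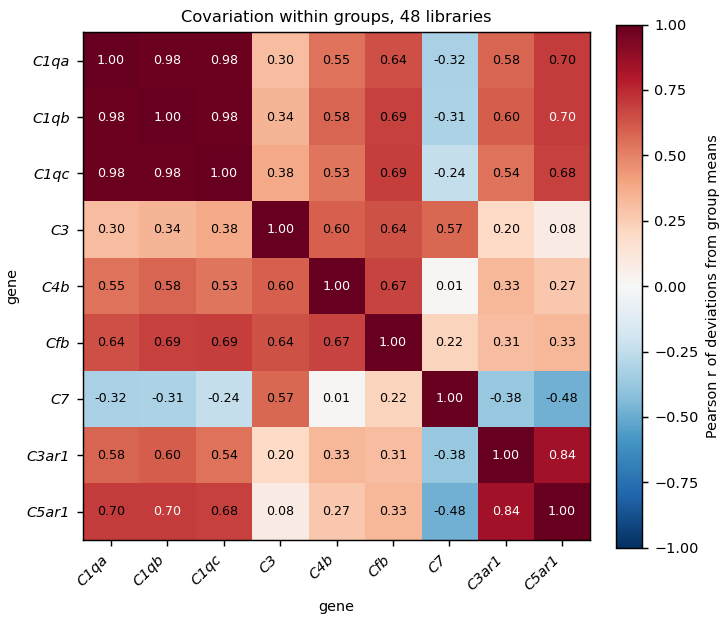
Pearson's r between members, over deviations of log2(CPM + 1) from the 6 group means in 48 libraries, with red for positive and blue for negative values. The C1q chains form a block at 0.98, C3ar1 and C5ar1 a pair at 0.84, and C7 is negative with C1q and the receptors.

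Outside the family, the genes most like each member on the same measure, among 13701 genes, were as follows. All 3 C1q chains were nearest to Pld4, an endolysosomal exonuclease of myeloid cells (r = 0.935 with C1qa, 0.945 with C1qb and 0.934 with C1qc), and then to Tmem176b. Among the genes nearest to C3ar1 was Nfam1 (0.911), and C5ar1 was nearest to Ms4a6d (0.942) and the inhibitory Fc receptor Fcgr2b (0.932). C7 was nearest to Spock2, an extracellular proteoglycan (r = 0.88), and to the matrix gene Vit (0.869). C3 was nearest to Ugt1a6a (0.831) and Slco2b1 (0.817), C4b to Cd72 (0.793) and Man1c1 (0.778), and Cfb to Igfbp4 (0.817) and Cpxm1 (0.797). The genes nearest to C7 thus differed from those nearest to the C1q chains and receptors. Nearest genes were not sought again without FeAAD5 and FeAAD9, on which some correlations of C7 rested.

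Of 44 other complement genes listed, 31 were tested, 10 were below the filter, with at most 10 counts in any library, and 3 were not analysed here. In FeAAD vs. FeCon 8 of the 31 were called higher and none lower, where 9.94% of all genes were called higher, and in MaAAD vs. MaCon 10 higher and none lower, where 9.18% were. The female count was 5 when only the compared groups were fitted, since C6, Cfi and Colec10 were then below the filter. Their median log2 fold change was 0.24 in females and 0.17 in males. C5 itself (Hc), C8a and C9 were below the filter. C6 was called higher in both sexes (log2 1.89 and 2.03), at no more than 35 counts in any library.

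Itgax and Itgam, receptor subunits of leukocytes, had the 2 largest rises of this list in each sex. Itgam and Itgb2, which form complement receptor 3, rose by 2.70 (SE 0.401, adjusted p = 4.98e-07) and 2.40 (SE 0.347, adjusted p = 3.13e-07) on the log2 scale in FeAAD vs. FeCon, and by 3.51 and 2.83 in MaAAD vs. MaCon. Itgax, which pairs with Itgb2 in receptor 4, rose by 2.98 and 2.93. C5ar2, the second C5a receptor, rose by 1.59 and 1.48. Vsig4, a receptor for C3 fragments on macrophages, was called in males only (log2 1.5), at 0.68 in females, and its difference between the sexes was not called. In MaAAD vs. MaNonAD, where no member was called, Itgam (log2 2.35) and Itgax (log2 2.25) were, each at an adjusted p of 0.0497, and both calls were lost with no filter on low counts, with the replicate number as a block and when only these groups were fitted. Cfp, C5ar2, Itgam, Itgax and Itgb2 were called higher in FeAAD vs. FeNonAD, and in FeNonAD vs. FeCon the carboxypeptidase N subunit Cpn2 was the 1 gene of the list called (log2 1.37, adjusted p = 0.0391), a call kept or lost with the library left out.

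Of the tested initiating and alternative pathway genes, 2 were called in lesions of each sex against controls. Properdin (Cfp), the stabilizer of the alternative convertase, rose by 1.80 in females and 1.66 in males on the log2 scale. The protease Masp1 was called in males (log2 1.59) and not in females (0.69, adjusted p = 0.0211). Colec10, at no more than 37 counts in any library, was called in females (2.52) and not in males (1.55, adjusted p = 0.0629). For neither gene was the difference in response between the sexes called. C1ra, C1s1, C1s2, C2, Masp2, Fcna and Colec11 were not called in any lesion comparison with controls, nor was factor D (Cfd). C1rl was higher in FeAAD vs. FeCon by 0.81 (adjusted p = 4e-07) and by 0.09 in MaAAD vs. MaCon, a difference in response of -0.72 that passed the adjusted p (0.0236) and not the fold threshold. The log2 difference of C1rl was 0.64 in MaCon vs. FeCon (adjusted p = 0.000232), 0.56 in FeNonAD vs. FeCon (adjusted p = 0.00157) and -0.08 in MaAAD vs. FeAAD (adjusted p = 1.0).

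Of the fluid-phase and membrane regulators, Cfi alone was called in lesions against controls. Cfi, the protease that cleaves C3b and C4b, was higher in both sexes (log2 1.87 and 2.66), at no more than 47 counts in any library. Serping1, the C1 inhibitor, had log2 values of -0.22 in females and 0.005 in males. None of the membrane regulators Cd55, Cd46, Cd59a, Cd59b and Cr1l was called. Cd59a, which blocks the membrane attack complex, was at -0.16 in females and -0.38 in males (adjusted p = 0.00426 in males).

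**Figure D5:**
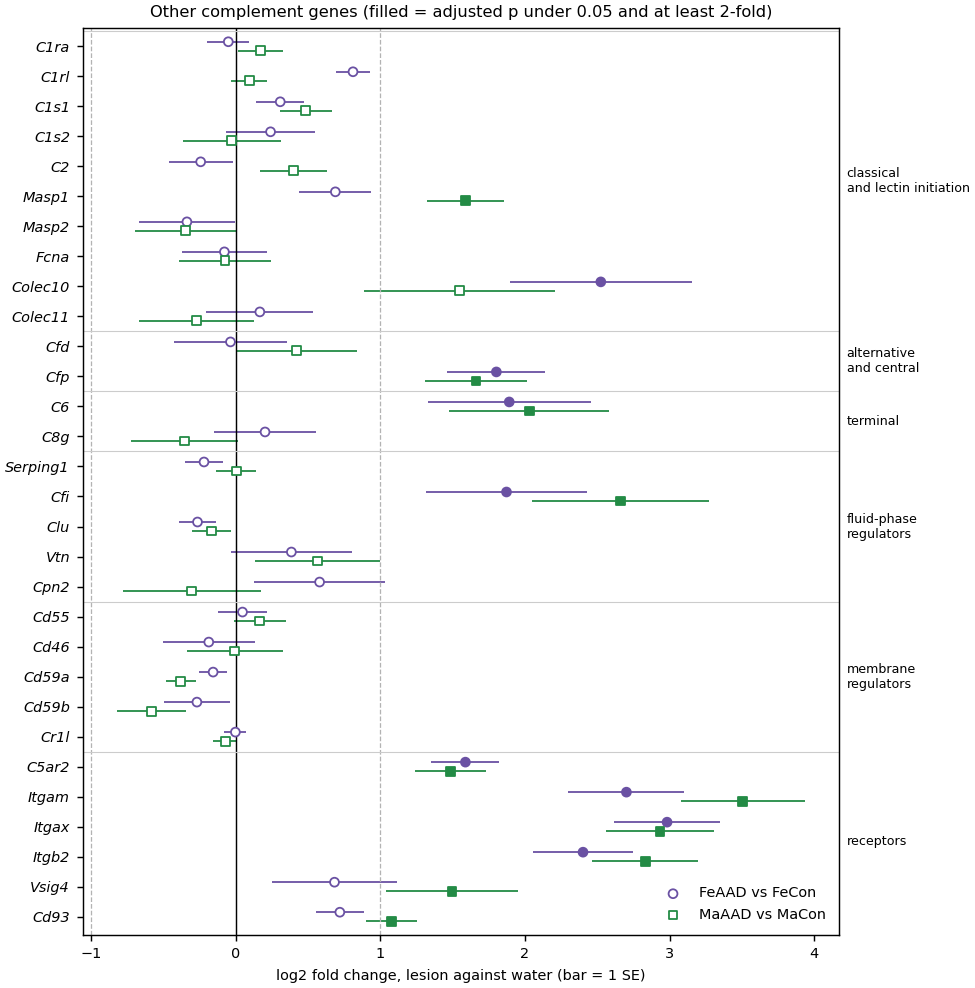
Log2 fold change of other tested complement genes in lesions against water controls, females as circles and males as squares, with bars of 1 SE and filled points where a gene was called, ordered by role. The receptors Itgam, Itgax, Itgb2 and C5ar2 were called in both sexes, and the membrane regulators lie between -1 and 1.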

How the data were processed

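The authors dissected saline-perfused thoracic aorta (ascending, arch and proximal descending) and describe the RNA as coming from its lesioned segments. Which segment was used in aortas without a lesion is not stated. The authors then made strand-specific mRNA libraries and sequenced them on a DNA NanoBall platform. They deposited expected counts per gene, and the submitters' processing notes name Bowtie2, RSEM 1.3.1 and GRCm39. Of all values 4.99% were not whole and were rounded, while the 432 values of the members were whole. Counting noise was not measured on its own. It weighs most on genes at few counts, such as C6, Colec10 and Cfi, and C3ar1 at 23 counts in FeCon7. Intervals cover differences between mice.

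Groups came from the sample labels, with 1 column per mouse. Tests used edgeR 4.0.16 in R 4.3.3 with filterByExpr, TMM factors (0.874 to 1.08), robust quasi-likelihood and 6 group means, and 95% intervals are 1.96 SE either side. The script was tested on simulated data. Calculations used pandas 2.3.3, figures matplotlib 3.10.9. Lengths came from the longest transcripts of GENCODE M21, promoters from RefSeq (GRCm38.p6). Members, lists and the rule for named genes were chosen with earlier results of these data known: all members, other complement genes past the threshold within a sex, and the 2 nearest genes by covariation. Results for some of these genes are not reported here. Other complement genes named in the text without a call were chosen after their values were seen. Alternatives were DESeq2 1.42.0, its size factors, no filter, adjusted p alone, no robust estimation, a replicate block, only the compared groups, no TMM factors, and leaving out each library.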

Additional observations from a re-analysis of the deposited data

Results flagged for a closer look

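Of 54 sets of levels, 1 per member and group, 6 held a library far from the rest of its group by Dixon's criterion, which chance meets in about 1 in 20. MaCon8 was lowest of MaCon for C1qc, at 30.1 CPM beside 55.8 to 89.5 in the others. MaNonAD2 was lowest of MaNonAD for C3, at 572 CPM beside 768 to 804. FeAAD9 was lowest of FeAAD for C3, at 151 CPM beside 472 to 1020.0, and for Cfb, at 21.9 CPM beside 67.3 to 174. FeNonAD8 was highest of FeNonAD for Cfb, at 130 CPM beside 42.4 to 70.0, and for C5ar1, at 31.3 CPM beside 6.44 to 10.2. No difference between the sexes in a member's response was called.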

How the results depend on the processing

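Members called in FeAAD vs. FeCon were 7 without any 1 library, 6 to 8 in MaAAD vs. MaCon (6 without MaAAD7), 3 to 6 in FeAAD vs. FeNonAD and 0 to 3 in MaAAD vs. MaNonAD. For the other complement genes, leaving out 1 library gave 0 to 2 in FeNonAD vs. FeCon, 0 to 3 in MaAAD vs. MaNonAD and 0 to 1 in MaCon vs. FeCon. In MaAAD vs. MaNonAD 1 member was called with DESeq2's size factors, without robust estimation or without the 4 libraries that stood apart, and 3 with DESeq2. The 2 other complement genes called there became 0 with no filter, with the replicate block or with only the compared groups, and 4 with DESeq2. By adjusted p alone 1 member and 3 other genes were called in FeNonAD vs. FeCon, where fitting only the compared groups or DESeq2 gave 2 other genes. Fitting only the compared groups also gave 5 other genes in FeAAD vs. FeCon, 1 member in MaNonAD vs. FeNonAD (also 1 without the 4 libraries) and 0 in MaAAD vs. FeAAD. In MaCon vs. FeCon 1 other gene was called by adjusted p alone, with only the compared groups or with DESeq2, and 1 in the AAD response by sex by adjusted p alone. The causes were not tested.

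Directions reversed only for uncalled differences. With the replicate block C3 in FeAAD vs. FeCon was -0.039, and it ran from -0.037 to 0.16 when 1 library was left out. Leaving out 1 library gave -0.111 to 0.017 for C3 in FeNonAD vs. FeCon and -0.007 to 0.195 in FeAAD vs. FeNonAD. In FeNonAD vs. FeCon it gave -0.021 to 0.237 for C1qa, -0.009 to 0.33 for C1qb, -0.01 to 0.29 for Cfb and -0.19 to 0.33 for C5ar1, and without the 4 libraries these were -0.019, -0.006, -0.005 and -0.184. The 54 group levels moved by less than 1 SD without TMM factors. The replicate block changed no member call. Same-numbered libraries had a mean correlation of deviations between -0.07 and 0.16, and no comparison had every pair over 0.1, so the numbers were not taken to pair mice.

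Only 4 MaNonAD aortas limit the male comparisons without a lesion, and composition of the tissue was not separated from expression per cell.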
